A study of Mus musculus with 24 samples.

Results

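Breakdown of the branched-chain amino acids was followed through 10 genes, Bcat2, Bckdha, Bckdhb, Dbt, Bckdk, Ppm1k, Ivd, Mccc1, Mccc2 and Hibch, picked by gene symbol from the 54532 genes of the deposited expression table, where each of them had 1 row. The mice were wild type (WT) or knockout (KO) for Mrs2, which encodes a magnesium channel of the inner mitochondrial membrane, and the study asked how mitochondrial magnesium bears on metabolism under long dietary stress. From 13 weeks of age they ate standard chow or a Western diet (WD), an obesogenic diet, for 52 weeks, and RNA was taken from powdered whole liver (50 mg) and inguinal white fat (iWAT, 100 mg, lymph nodes removed). Both genotypes were kept on both diets and both tissues were taken, which gives 8 groups of 3 libraries, 24 in all. The labels number the libraries 1 to 3 in each group but name no animal, so a liver and an iWAT library may come from the same mouse, and p-values measure only the spread between these libraries, which may be technical. The labels used here do not name the knockout allele, its cell type, the strain or the sex.

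Leucine, isoleucine and valine are first stripped of their amino group by a branched-chain aminotransferase, the mitochondrial form of which is Bcat2. The resulting keto acids are committed to oxidation by the branched-chain keto acid dehydrogenase complex, built from an E1 decarboxylase (alpha subunit Bckdha, beta subunit Bckdhb), the E2 core Dbt and a shared E3. The kinase Bckdk phosphorylates E1 alpha and switches the complex off, and the phosphatase Ppm1k removes the phosphate and switches it on. Downstream, Ivd (isovaleryl-CoA dehydrogenase) and the biotin enzyme made of Mccc1 and Mccc2 (methylcrotonyl-CoA carboxylase) act on leucine, and Hibch (3-hydroxyisobutyryl-CoA hydrolase) acts on valine. Liver is known for low aminotransferase and high dehydrogenase activity, while fat and muscle carry out the first step.

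The stretches before 3 of the genes are shown because Ppm1k and Bckdk oppose each other on the complex and moved apart in WT liver on WD, and Ivd fell with Ppm1k there. They are RefSeq sequences of GRCm38.p6 (the mm10 assembly), 5′ to 3′ on the strand of the gene, taken from the 250 bases before the RefSeq start and ended before any base that the deposited annotation transcribes. Capitals mark CCAAT and its reverse complement ATTGG.
Ppm1k, chr6:57535488-57535737, minus strand: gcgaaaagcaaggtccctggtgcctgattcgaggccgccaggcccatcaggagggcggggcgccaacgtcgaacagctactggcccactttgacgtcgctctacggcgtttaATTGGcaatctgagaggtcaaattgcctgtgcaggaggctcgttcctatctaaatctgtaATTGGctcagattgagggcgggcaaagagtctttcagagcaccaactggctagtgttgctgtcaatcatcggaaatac
Bckdk, chr7:127903823-127904072, plus strand: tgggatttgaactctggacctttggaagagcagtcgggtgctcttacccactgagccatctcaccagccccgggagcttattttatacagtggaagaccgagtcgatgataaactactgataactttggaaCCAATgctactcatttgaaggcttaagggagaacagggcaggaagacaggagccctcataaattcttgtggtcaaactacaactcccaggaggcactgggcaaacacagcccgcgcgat
Ivd, chr2:118861744-118861953, plus strand: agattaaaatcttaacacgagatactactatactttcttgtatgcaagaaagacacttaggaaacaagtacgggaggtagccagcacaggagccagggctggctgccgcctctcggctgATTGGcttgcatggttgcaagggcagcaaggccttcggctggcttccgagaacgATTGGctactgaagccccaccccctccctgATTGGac
RefSeq windows were at hand for 9 of the 10 genes, all but Dbt, and numbered 11, since Bcat2 and Bckdhb had more than 1. The Ivd stretch of 210 bases held the word 3 times, that of Ppm1k held it 2 times and that of Bckdk 1 time. Over the whole 250-base windows, 6 of the 11 held CCAAT on either strand, against 33.8% of 32851 promoters. GGGCGG was found in 4 of the 11 windows (32.7% of all promoters), CACCC in 6 (52.0%) and CACGTG in 1 (6.02%). AAGGTCA (4.08% of all promoters) and GCGCNTGCG (5.19%) were found in none of these windows. Both strands were searched; no match in these windows overlapped one of another word, while matches of the same word overlapped each other in Mccc2 (CCAAT) and Hibch (GGGCGG). A match describes letters only.

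Levels are given as FPKM, fragments per kilobase of gene length scaled to the authors' effective library size, so they can be set side by side between genes. That size was 0.769 to 1.07 times the reads in genes in liver libraries and 1.243 to 1.596 times in iWAT libraries. FPKM set side by side between the tissues carry this difference in scale. Log2 fold changes and standard errors (SE) come from limma on log2(FPKM + 1), and a gene is said to have risen or fallen at a Benjamini-Hochberg adjusted p under 0.05 over all genes tested. Liver libraries held 14717613 to 19538975 reads in genes, and those of iWAT 15358324 to 20354594. Mrs2 itself was at 1.601 to 2.25 FPKM in the 6 KO libraries of iWAT and 2.74 to 5.01 in the 6 WT ones, and at 3.90 to 4.47 in KO and 5.87 to 6.50 in WT chow liver, and the difference passed limma's test over all genes on WD in iWAT (adjusted p = 0.0234) but not on chow in iWAT (0.432) or liver (0.863). The authors' deposited DESeq2 values for Mrs2 in iWAT were -1.09 on chow (adjusted p = 8.15e-06) and -1.23 on WD (0.000286). In chow liver the authors' value was -0.57 (adjusted p = 0.223, DESeq2). In WD livers the level of Mrs2 was 5.10, 4.10 and 5.11 FPKM in the WT libraries and 4.10, 5.21 and 4.21 in the KO libraries. The groups overlapped, so Mrs2 did not tell the livers labelled KO and WT on WD apart, and their directions rest on the labels. The summed level of 8 acinar genes of pancreas was 1644.42 FPKM in KO chow liver 1 and 1340.57 in WT WD liver 2. That of 8 muscle genes was 4126.4 in WT WD iWAT 1, 1208.69 in KO WD iWAT 1, 150 in WT chow liver 3 and 62.7 in KO WD liver 2. The 8 hepatocyte markers summed to at least 28980.5 FPKM in every liver and at most 37.5 in iWAT, and the 8 adipocyte markers to at least 8124.93 in iWAT and at most 87.7 in liver. Nothing in the labels says that same-numbered libraries share a litter or day.

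Liver and iWAT of WT mice on chow held the genes in different proportions. Of the 10 genes, 4 were higher in iWAT, against 31.5% of 15254 genes tested, and 4 were lower, against 32.5%. Bcat2, the first step, was at 14.2, 8.22 and 9.21 FPKM in liver and at 52.0, 48.0 and 41.6 in iWAT. Its log2 difference was 2.09 ± 0.20 (SE, adjusted p = 3.62e-08, limma), and the kinase Bckdk followed with 1.65 ± 0.13. The phosphatase Ppm1k went the other way, from 26.8, 17.6 and 16.8 FPKM in liver to 2.38, 2.78 and 3.53 in iWAT (log2 difference -2.44 ± 0.19, adjusted p = 1.44e-09, limma). Whether the tissues share animals is not known here, and a block on the library number changed none of the 8 calls. No library of one tissue reached the range of the other for these 3 genes. Mccc1 (0.92) and Hibch (0.47) were also higher in iWAT, and the subunits Dbt (-0.85), Bckdha (-0.84) and Bckdhb (-0.63) were lower. The Hibch call was lost without WT chow liver 1 (adjusted p = 0.0961) or without WT chow iWAT 2 (adjusted p = 0.0875). Scaling to total reads in place of the authors' size moved the median of all genes from 0.00 to 0.61 in this comparison. Bcat2, Bckdk and Ppm1k kept their calls under it, but Dbt (-0.05) and Bckdha (-0.04) did not, and Bckdhb turned to 0.18, while Ivd (0.70) and Mccc2 (0.74) were then called higher. The share of higher genes among all those called went from 49.2% to 79.7%.

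By level, WT chow liver was led by Bckdhb (63.4 ± 21.6 FPKM, SD, n = 3) and Ivd (58.3 ± 2.82), whose ranges overlapped, ahead of Dbt (45.1 ± 2.60) and Bckdha (44.9 ± 7.004), whose ranges also overlapped. Mccc2, Ppm1k, Hibch, Bcat2 and Mccc1 came next, and Bckdk stood last at 4.09 ± 0.39, below every Mccc1 library. In WT chow iWAT the order ran from Ivd (54.6 ± 11.2) and Bcat2 (47.2 ± 5.23) down to Ppm1k (2.89 ± 0.58). Each neighbour in that order overlapped the next except Mccc1 and Ppm1k. The other mitochondrial subunit in use, the E3 gene Dld, was at 45.2 to 48.0 FPKM in WT chow liver and 37.2 to 47.8 in WT chow iWAT. The cytosolic aminotransferase Bcat1 was listed at 0 in all 3 WT chow livers and at 0.356 to 0.816 FPKM in WT chow iWAT.

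On chow, none of the 10 genes differed between KO and WT liver, in a comparison where limma called 0% of 14019 genes. At an unadjusted p under 0.05 limma listed 675 genes, among them Bcat2 (log2 -0.39 ± 0.17, unadjusted p = 0.0403 and adjusted p = 0.863, limma); edgeR called 0 of all genes and DESeq2 16, none of them among the 10. Bcat2 was at 7.97, 6.55 and 8.43 FPKM in KO chow liver, and the highest of these lay above the lowest WT value. Their median log2 difference was 0.01, with 5 above and 5 below 0, beside 0.00 for all genes.

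**Figure D1:**
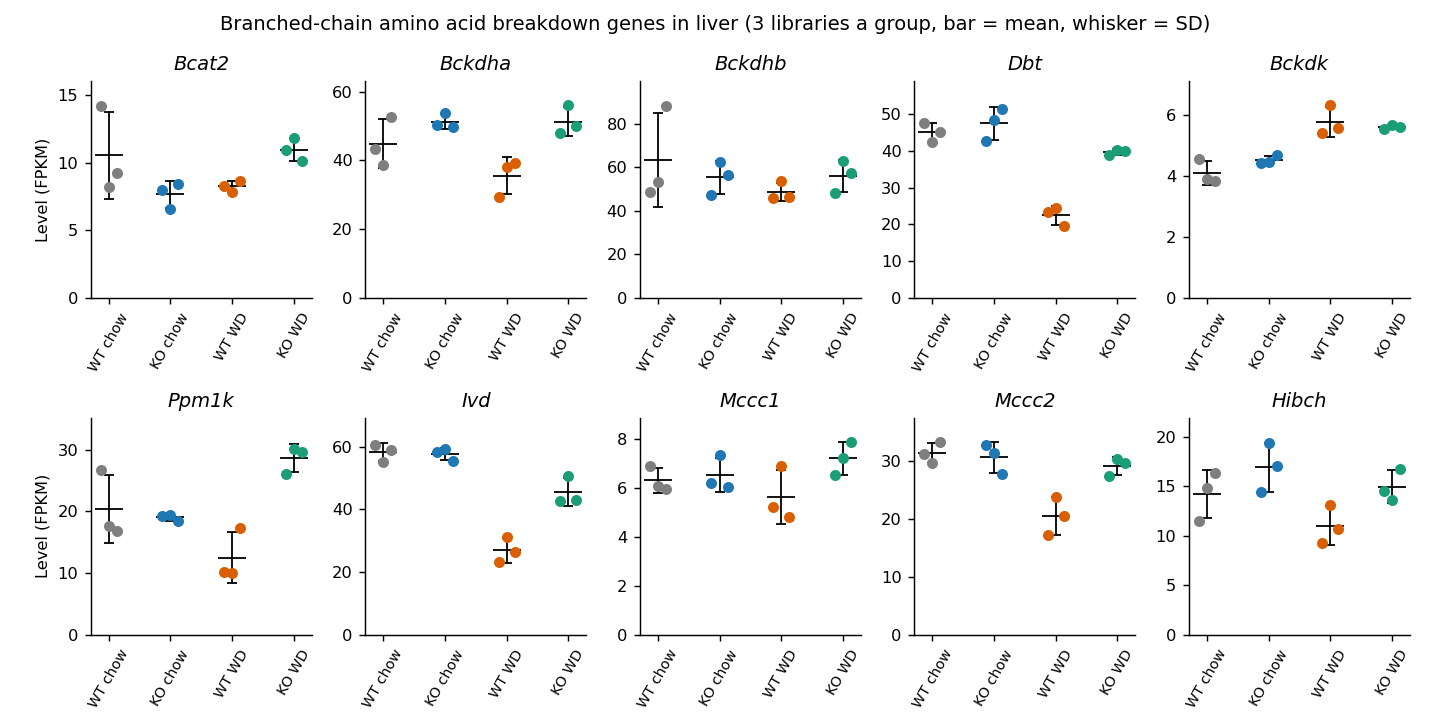
Levels of the 10 genes in liver, in FPKM, by group, with 1 point a library, a bar at the mean of 3 libraries and whiskers of 1 SD. Dbt and Ivd are lowest in the 3 WT WD livers, and Bckdk lies higher on WD than on chow in both genotypes.

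In WT liver the Western diet lowered 4 of the 10 genes, Ivd, Dbt, Mccc2 and Ppm1k, against 9.49% of genes called lower, and raised Bckdk, against 9.72% called higher. The E2 core gene Dbt fell from 47.6, 42.4 and 45.2 FPKM on chow to 23.4, 24.4 and 19.5 on WD. Every WD library lay below every chow library, and the log2 difference was -0.98 ± 0.10 (SE, adjusted p = 0.000487, limma). Ivd, the third enzyme of leucine breakdown, fell from 60.6, 55.1 and 59.0 FPKM to 23.2, 31.2 and 26.2 (-1.10 ± 0.11, adjusted p = 0.000444, limma). Again the groups did not overlap. Its neighbour in the pathway, the carboxylase subunit Mccc2, fell from 31.1, 29.7 and 33.2 to 17.1, 23.8 and 20.4 (-0.60 ± 0.12, adjusted p = 0.00704, limma). Mccc1, the biotin-bearing partner, was at 6.88, 6.08 and 5.95 FPKM on chow and 5.1999, 6.90 and 4.82 on WD and did not pass the test (-0.15, adjusted p = 0.451, limma), so the ratio of Mccc2 to Mccc1 went from 4.51 to 5.58 on chow to 3.30 to 4.23 on WD.

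The 2 regulators of the complex moved apart in WT liver on WD. The kinase Bckdk rose from 4.54, 3.90 and 3.84 FPKM on chow to 5.42, 6.34 and 5.57 on WD (0.41 ± 0.08, adjusted p = 0.0075, limma), with no overlap. The phosphatase Ppm1k was at 26.8, 17.6 and 16.8 FPKM on chow and at 10.2, 9.97 and 17.3 on WD (-0.68 ± 0.21, adjusted p = 0.0452, limma). WT WD liver 3 lay within the chow range. That call was close to the threshold: it was lost without WT chow liver 1 (-0.48, adjusted p = 0.113), 2 (-0.77, 0.0505) or 3 (-0.80, 0.0580), without WT WD liver 1 (-0.57, 0.155) or 2 (-0.55, 0.127), and with edgeR (-0.65, adjusted p = 0.0622). The subunits Bckdha (-0.33, adjusted p = 0.123) and Bckdhb (-0.33, 0.296), and Bcat2 (-0.28, 0.259) and Hibch (-0.34, 0.166), did not pass limma's test. Over the 10 genes 9 were below 0, with a median of -0.33 beside -0.05 for all genes, and 4 had groups that did not overlap, 3 of them lower, beside 19.2% of all genes separate and lower.

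In KO liver the diet gave no call among the 10 genes, in a comparison where 0.421% of genes were called. Ivd was at 58.3, 59.2 and 55.5 FPKM on chow and 42.8, 50.6 and 43.1 on WD (-0.34 ± 0.11, adjusted p = 0.202, limma), and Dbt at 42.7, 48.5 and 51.5 on chow and 38.9, 40.3 and 40.0 on WD (-0.25 ± 0.10, 0.278). Both sets of libraries were separate, with the WD values lower. Ppm1k was at 19.3, 19.4 and 18.4 FPKM on chow and 26.1, 30.2 and 29.6 on WD (0.56 ± 0.21, adjusted p = 0.242, limma), separate and with the WD values higher. Bckdk (0.26, adjusted p = 0.186) and Bcat2 (0.47, 0.222) were also separate and higher on WD. Of all genes in this comparison, 14.2% were separate and higher and 12.5% separate and lower. At an unadjusted p under 0.05 limma listed 5 of the 10 and 2152 of all genes; edgeR called none of the 10, and DESeq2 called Ivd (-0.35, adjusted p = 0.0435), where it called 4.92% of all genes.

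Between genotypes on WD, 5 of the 10 genes were higher in the livers labelled KO, Dbt, Ivd, Ppm1k, Mccc2 and Bckdha, against 10.6% of genes called higher, and none was called lower. The WT libraries are those of the diet comparison above, so the 2 sets of values are not independent. Dbt was at 38.9, 40.3 and 40.0 FPKM in KO and 23.4, 24.4 and 19.5 in WT livers (0.80 ± 0.10, adjusted p = 0.00155, limma). Ivd was at 42.8, 50.6 and 43.1 against 23.2, 31.2 and 26.2 FPKM (0.74 ± 0.11, adjusted p = 0.00298, limma). Ppm1k, the activating phosphatase, had the widest gap, 26.1, 30.2 and 29.6 against 10.2, 9.97 and 17.3 FPKM (1.18 ± 0.21, adjusted p = 0.00532, limma). For these 3 genes no KO library fell into the WT range, and the calls held when any 1 library was left out. Mccc2 was at 27.3, 30.2 and 29.6 against 17.1, 23.8 and 20.4 FPKM (0.50 ± 0.12, adjusted p = 0.0149, limma) and lost its call without WT WD liver 1 (0.38, adjusted p = 0.0546). Bckdha was at 48.0, 56.1 and 50.0 against 29.4, 38.2 and 39.3 FPKM (0.52 ± 0.14, adjusted p = 0.0231, limma). Its call was lost without WT WD liver 1 (0.39, adjusted p = 0.0861), KO WD liver 2 (0.46, 0.0742) or KO WD liver 3 (0.54, 0.0564). Without the 2 livers high in muscle genes neither Mccc2 (0.47, adjusted p = 0.0521) nor Bckdha (0.46, 0.0513) passed.

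The kinase Bckdk did not pass the test between the WD livers, 5.54, 5.67 and 5.62 FPKM in KO and 5.42, 6.34 and 5.57 in WT (-0.03 ± 0.08, adjusted p = 0.806, limma), with overlap. Hibch (0.42, adjusted p = 0.0926), Bcat2 (0.37, 0.143) and Mccc1 (0.32, 0.0996) did not pass limma's test. Without WT WD liver 2, 1 of the 2 livers high in acinar genes, Hibch (0.54, adjusted p = 0.0463) and Mccc1 (0.45, 0.0212) passed it. Bckdhb was at 48.1, 62.9 and 57.2 FPKM in KO and 46.0, 53.5 and 46.6 in WT livers (0.19 ± 0.21, adjusted p = 0.549, limma), so the beta subunit overlapped where the alpha subunit did not. The 10 genes had a median of 0.46, beside 0.07 for all genes, and 7 were separate and higher, beside 25.4% of all genes. The authors' deposited table lists 7 of the 10 for this comparison, 6 of them at an adjusted p under 0.05, with Ppm1k at 1.16, Dbt at 0.79 and Bcat2 at 0.37 (adjusted p = 0.0461). The seventh is Hibch (0.41, adjusted p = 0.0725, DESeq2), so a listed gene need not have passed that threshold. DESeq2 as run here called 10.2% of all genes higher in this comparison.

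The 3 WT WD livers also stood apart in scale: the authors' effective library size was 0.980 to 1.07 times the reads there and 0.769 to 0.854 times in the other 9 livers. Scaled to total reads, the median of all genes in KO against WT on WD went from 0.07 to -0.17, and Dbt, Ivd and Ppm1k remained higher (0.49, 0.42 and 0.86). Mccc2 (0.18) and Bckdha (0.20) then did not pass, and Bckdk was called lower (-0.31, adjusted p = 0.00998, limma). Relative to that median 9 of the 10 genes were higher under both scalings. The share of higher genes among all those called went from 50.6% to 10.01%. In the diet comparison of WT liver the same change moved the median from -0.05 to 0.20, and Dbt, Ivd and Bckdk kept their calls (-0.65, -0.76 and 0.68), with the higher share going from 50.6% to 91.3%. Mccc2 (-0.27, adjusted p = 0.0637, limma) and Ppm1k (-0.36, 0.208) lost theirs.

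Cell type markers moved with these liver results. In KO against WT on WD all 8 macrophage markers fell, with a median of -2.79 and a summed level of 71.8 to 87.7 FPKM in KO and 334 to 977 in WT livers. All 7 fibroblast and matrix genes fell (median -2.22), 5 of 8 hepatocyte markers rose (median 0.71) and 13 of 17 nuclear respiratory chain genes rose (median 0.41). The summed hepatocyte markers overlapped, at 32289.5 to 41289.7 FPKM in KO and 28980.5 to 36340.2 in WT livers on WD. On chow they were at 56615.2 to 63165.5 in KO and 53831.2 to 84937.8 in WT livers. In WT liver the diet gave the reverse: 8 of 8 macrophage and 7 of 7 fibroblast genes rose, while 7 of 8 hepatocyte markers (median -1.05) and 12 of 17 respiratory chain genes (median -0.42) fell. None of the macrophage markers was at 0 in a whole group. The mean log2 level of the 10 genes minus that of the 17 respiratory chain genes was -1.96, -2.05 and -1.94 in WT WD livers and -1.90, -1.83 and -1.91 in KO WD livers. The part of cell makeup in the liver results was not tested, and in whole tissue fewer cells of a type and less RNA per cell cannot be told apart.

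**Figure D2:**
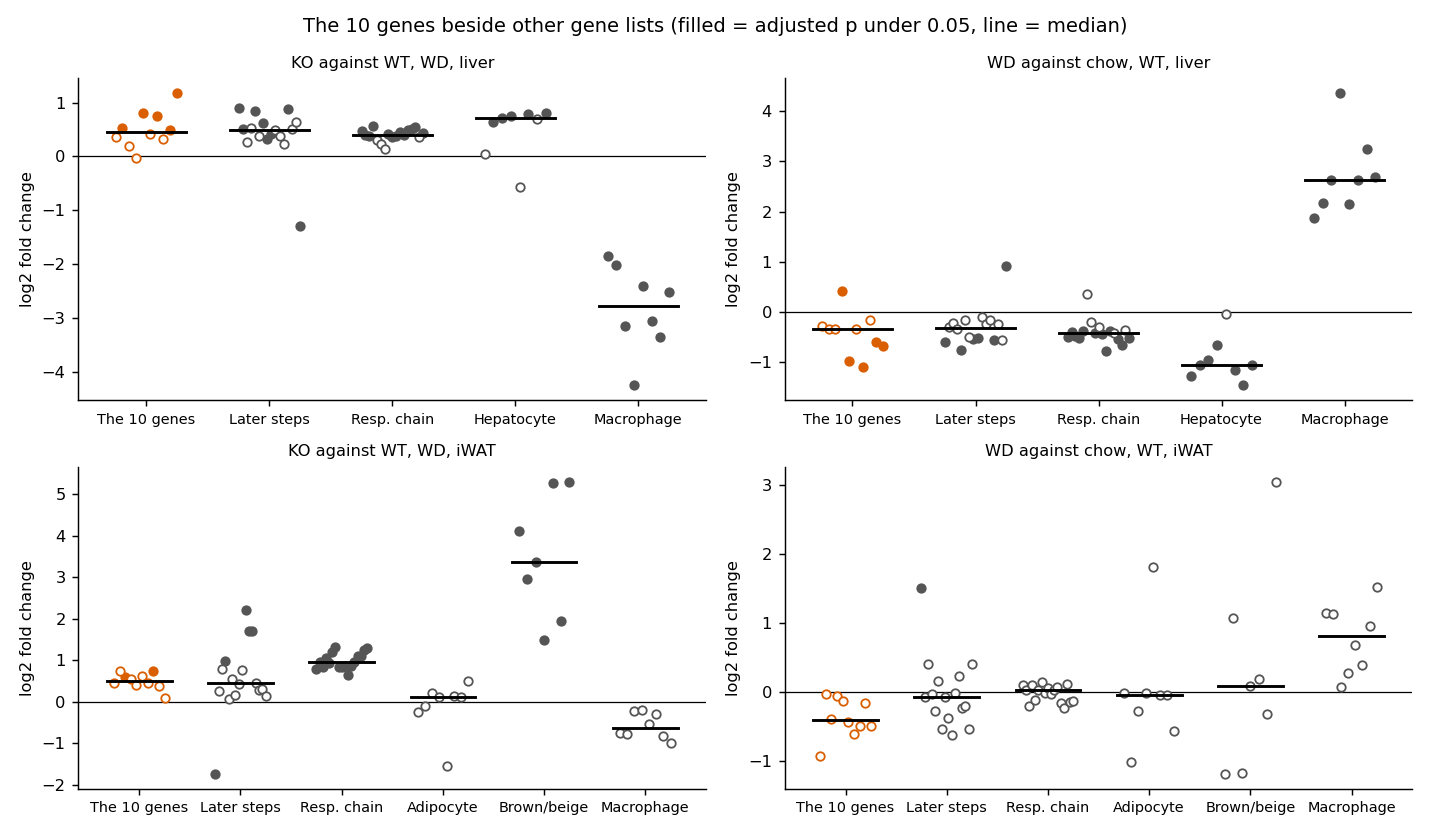
Log2 fold changes of the 10 genes (orange) and of other gene lists (grey) in 4 comparisons, with 1 point a gene, filled where the adjusted p was under 0.05, and a line at the median of each list. In WD liver the 10 genes (median 0.46) lie near the respiratory chain genes (0.41), and in WD iWAT they (0.51) lie below them (0.96) and far below the brown and beige markers (3.37).

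Whether the diet response differed between genotypes in liver was tested as an interaction. None of the 10 genes passed, where 0.549% of all genes did, and 5 of the 10 had an unadjusted p under 0.05, as had 2305 of all genes. The largest terms were Ppm1k (1.24 ± 0.30, adjusted p = 0.104, limma), Ivd (0.76 ± 0.16, 0.0732), Bcat2 (0.75 ± 0.23, 0.170) and Dbt (0.73 ± 0.14, 0.0582). DESeq2 called Dbt (0.68, adjusted p = 0.00223), Ivd (0.70, 0.00148) and Ppm1k (1.22, 0.0133), where it called 4.02% of all genes, and edgeR called none of the 10. With limma, Dbt passed without WT chow liver 2 (0.77, adjusted p = 0.0417), where 2% of all genes did. Without WT WD liver 2 Dbt (0.79, 0.0346) and Ivd (0.87, 0.0239) passed, where 2.29% of all genes did. Ppm1k passed without WT WD liver 3 (1.48, 0.0444), where 0.265% did.

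**Figure D3:**
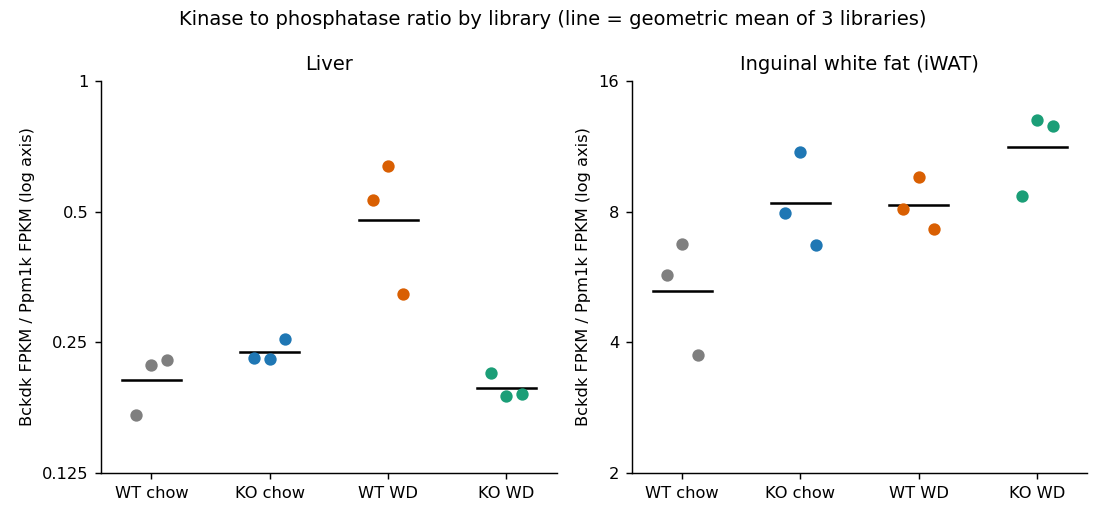
Bckdk FPKM divided by Ppm1k FPKM in each library, on a log axis of its own for each tissue, with a line at the geometric mean of 3 libraries. The 3 WT WD livers (0.323 to 0.636) lie above the other 9, and every iWAT library lies above every liver.

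The ratio of kinase to phosphatase transcripts does not depend on library scaling, but a shift in it need not involve both genes. For KO against WT liver on WD, Ppm1k was at 1.18 and Bckdk at -0.03. For WD against chow in KO liver both were above 0 (0.56 and 0.26). On chow the geometric mean of the ratio in liver was 0.205 in WT and 0.237 in KO mice. On WD it was 0.478 in WT and 0.196 in livers labelled KO. WT WD livers ranged from 0.323 to 0.636 and KO WD livers from 0.188 to 0.212. On chow the ranges nearly touched, at 0.170 to 0.228 in WT and 0.229 to 0.254 in KO livers. The log2 difference was 1.22 for WD against chow in WT and -1.28 for KO against WT on WD. Both pairs of groups were separate, as were KO against WT on chow (0.21) and WD against chow in KO (-0.27). Each had p = 0.1 by a two-sided exact permutation test, the smallest that 3 against 3 allows, and 0.16 adjusted over 8 comparisons. In iWAT the ratio was 5.25 (WT) and 8.36 (KO) on chow and 8.28 (WT) and 11.2 (KO) on WD, and only WD against chow in WT was separate (0.66, exact permutation p = 0.1). Ratios of transcripts say nothing of the phosphate on the complex.

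**Figure D4:**
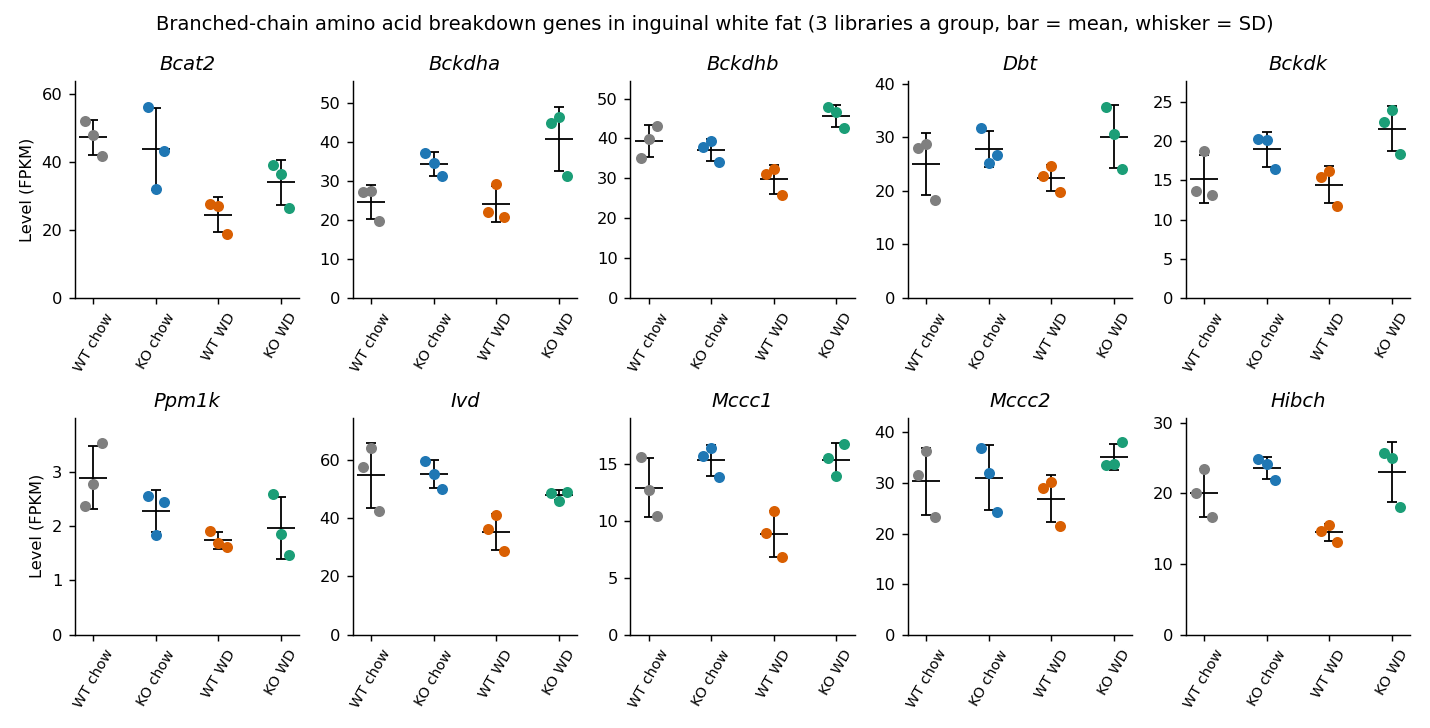
Levels of the 10 genes in iWAT, in FPKM, by group, with 1 point a library, a bar at the mean of 3 libraries and whiskers of 1 SD. The 3 KO WD libraries lie above the 3 WT WD libraries for Bckdha, Bckdhb, Bckdk, Ivd, Mccc1, Mccc2 and Hibch.

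In iWAT on WD, Bckdhb and Mccc1 were higher in KO mice, 2 of the 10 against 3.2% of 14685 genes called higher. All 10 differences were above 0. With a mean FPKM of at least 5 required, 7.54% of genes were called higher. Bckdha (adjusted p = 0.0381, limma) and Hibch (0.0323) were then called as well. The E1 beta subunit Bckdhb was at 47.8, 46.5 and 42.6 FPKM in KO and 31.2, 32.4 and 25.7 in WT (0.61 ± 0.12, adjusted p = 0.0249, limma). The carboxylase subunit Mccc1 was at 15.5, 13.9 and 16.8 against 8.91, 10.8 and 6.83 FPKM (0.75 ± 0.17, adjusted p = 0.0387, limma). No library of either gene crossed between the groups. Bckdha was at 44.7, 46.4 and 31.4 against 22.1, 29.3 and 20.7 FPKM (0.73 ± 0.19, adjusted p = 0.0590, limma), and Hibch at 25.8, 25.1 and 18.1 against 14.6, 15.6 and 13.2 (0.62 ± 0.15, 0.0504). For both, KO WD iWAT 3 was the lowest KO library and still above every WT library. Without it limma called Bckdha (0.91, adjusted p = 0.0206) and Hibch (0.78, 0.0121). The kinase Bckdk was at 22.5, 24.03 and 18.4 against 15.5, 16.2 and 11.8 FPKM (0.55 ± 0.17, adjusted p = 0.0999, limma), again without overlap.

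Among the rest in iWAT, Ivd (0.44, adjusted p = 0.186) and Mccc2 (0.39, 0.332) were separate, and Bcat2 (0.46, 0.314), Dbt (0.40, 0.307) and Ppm1k (0.10, 0.792) overlapped; none passed limma's test. The median was 0.51, beside -0.02 for all genes, and 7 were separate and higher, beside 12.7% of all genes. The authors' deposited table gives an adjusted p under 0.05 for Mccc1 (0.82), Bckdha (0.79), Hibch (0.70), Bckdhb (0.64) and Bckdk (0.61). It also lists Ivd, Mccc2, Dbt and Bcat2, at adjusted p = 0.0623 to 0.207 (DESeq2). DESeq2 as run here called 6.77% of all genes higher. The calls of this comparison were not firm. Bckdhb lost its own without WT WD iWAT 1 (adjusted p = 0.0512) or 3 (0.106), or KO WD iWAT 1 (0.111) or 2 (0.103), with values of 0.51 to 0.64. Mccc1 lost its own without WT WD iWAT 1 (0.0767) or 3 (0.142), or KO WD iWAT 1 (0.134), 2 (0.103) or 3 (0.0754), with values of 0.59 to 0.82. Without both muscle-high libraries, which leaves 2 libraries a group, they were 0.61 and 0.76 and not called (adjusted p = 0.151 and 0.189), where 0.0274% of genes were. With the library number as a replicate block limma called 5 of the 10, where 4.68% of all genes were called, and edgeR called 4, where 4.76% were. Scaled to total reads, the share of higher genes among all those called went from 75.3% to 39.8%, with all 10 genes still above 0.

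**Figure D5:**
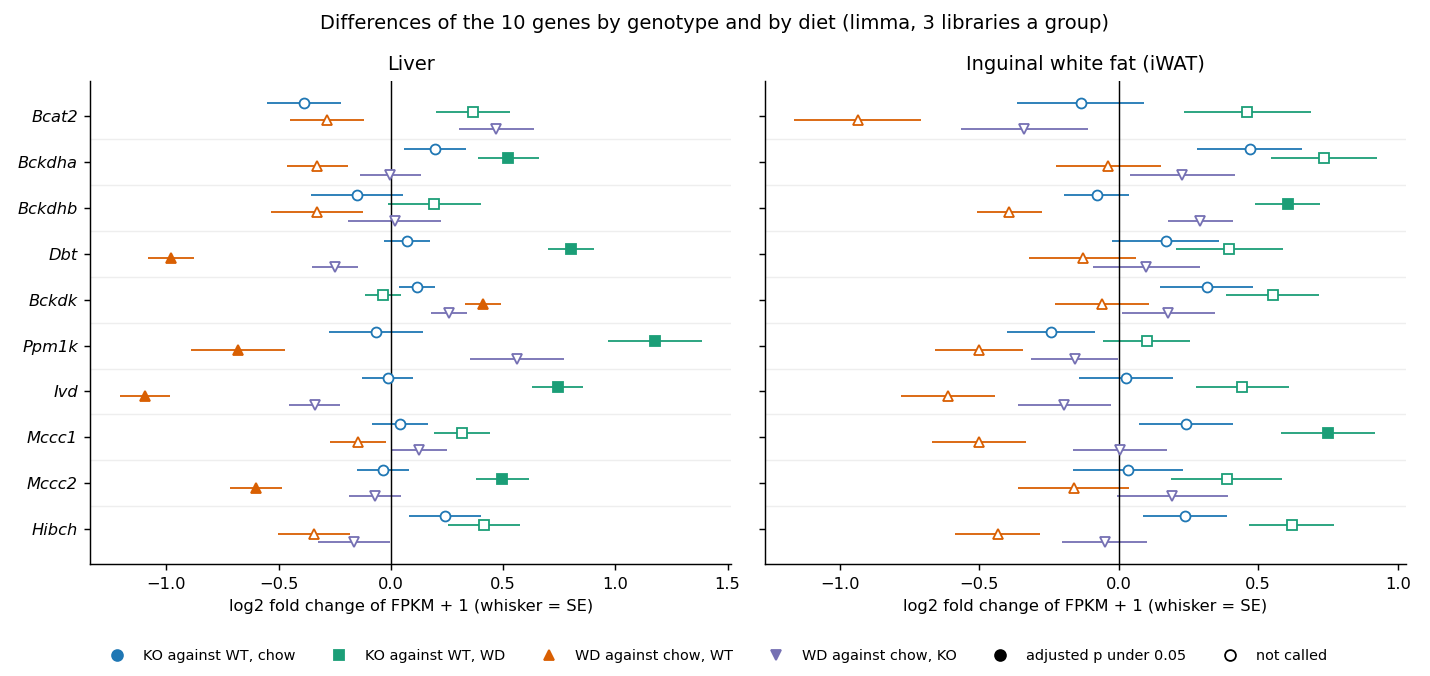
Log2 fold changes with SE whiskers for the 10 genes in 4 comparisons in each tissue, filled where the adjusted p was under 0.05. In iWAT the 10 values for KO against WT on WD lie above 0 and the 10 for WD against chow in WT lie below it.

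Brown and beige fat markers and respiratory chain genes were higher in KO iWAT on WD. All 7 brown and beige markers rose (median 3.37), with summed levels of 1824.83, 1939.61 and 585.124 FPKM in KO and 161, 150 and 20.7 in WT mice on WD, and none was at 0 in a whole group. All 17 nuclear respiratory chain genes rose (median 0.96), and mitochondrially encoded transcripts took 5.27 to 11.6% of reads in KO and 2.49 to 3.42% in WT. On chow, where limma called 0% of genes, the brown and beige markers summed to 625 to 892 FPKM in KO and 138 to 146 in WT iWAT. Their median difference there was 2.13 and that of the respiratory chain genes 0.52, beside 0.10 for the 10 breakdown genes. The 10 breakdown genes stood lower relative to the respiratory chain in KO than in WT on WD, -2.41, -2.48 and -1.99 against -1.85, -1.79 and -1.79 in mean log2 level, with no overlap. This was not particular to WD. The shift also had this sign, without overlap, for KO against WT on chow (-0.44) and for WD against chow in WT (-0.35) and KO (-0.40). KO WD iWAT 3, lowest of the KO group in brown markers, was also the lowest in Bckdha, Bckdhb, Dbt, Bckdk, Bcat2, Ppm1k and Hibch, but the highest in Ivd, Mccc1 and Mccc2. None of the 8 adipocyte markers was called on WD (median 0.11). Whether more brown-like cells or more RNA per cell lay behind the values was not tested.

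For the diet in WT iWAT limma called none of the 10 genes, where 2.12% of all genes were called. All 10 differences were below 0, from -0.93 to -0.04, with a median of -0.41 beside 0.01 for all genes, and those of Bckdha (-0.04), Bckdk (-0.06), Dbt (-0.13) and Mccc2 (-0.16) were smaller than their SE. Bcat2 was at 52.0, 48.0 and 41.6 FPKM on chow and 27.7, 27.1 and 18.6 on WD (-0.93 ± 0.23, adjusted p = 0.0648, limma), and Ivd at 57.5, 64.1 and 42.3 against 36.2, 41.0 and 28.6 (-0.61 ± 0.17, 0.0843). The chow and WD libraries of both were separate. Bckdhb, Hibch and Ppm1k were separate as well, 5 of the 10 in all, beside 11.8% of genes separate and lower. At an unadjusted p under 0.05 limma listed 6 of the 10 and 3109 of all genes, edgeR called none of the 10, and DESeq2 called 6 (Bcat2, Ivd, Bckdhb, Ppm1k, Mccc1 and Hibch), where it called 10.9% of all genes. The respiratory chain genes had a median of 0.02 here and the adipocyte markers -0.05, with none called in either list. Bcat1 rose from 0.356, 0.816 and 0.436 FPKM to 3.17, 1.80 and 2.48 (1.17 ± 0.19, adjusted p = 0.0187, limma), opposite in sign to Bcat2.

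The 3 remaining iWAT comparisons gave no call among the 10 genes. In KO against WT on chow limma called 0% of genes, with 830 genes and 1 of the 10 at an unadjusted p under 0.05. That was Bckdha, at 37.2, 34.5 and 31.2 FPKM in KO and 27.1, 27.3 and 19.7 in WT (0.47 ± 0.19, adjusted p = 0.818, limma). Its libraries were separate, beside 5.86% of all genes separate and higher. In WD against chow in KO limma called 0% of genes, with 1390 genes and 1 of the 10 (Bckdhb, 0.29) at an unadjusted p under 0.05. In the interaction limma called 0% as well, with 1011 genes and 1 of the 10 (Bckdhb, 0.69 ± 0.16, adjusted p = 0.573) at an unadjusted p under 0.05. All 10 interaction terms were above 0, but they share libraries with the comparisons above. Over all genes edgeR called 0 in each of the 3, and DESeq2 called 68, 175 and 51, of the 10 only Bckdhb in the interaction (0.72, adjusted p = 0.0343).

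Among 16 genes of the later steps, 7 rose and 1 fell in KO against WT liver on WD, beside 10.6% of all genes higher and 10.4% lower. Acadsb, the dehydrogenase of the isoleucine branch, was at 32.3, 27.6 and 30.4 FPKM in KO and 14.9, 17.8 and 16.6 in WT livers (0.84 ± 0.09, adjusted p = 0.000813, limma), and it passed the interaction test in liver (0.70, adjusted p = 0.0442), as no member of the 10 did. The valine-branch genes Hibadh (0.88) and Abat (0.90) rose beside it, and Oxct1, which activates ketone bodies for use, fell (-1.29). In WT liver on WD 5 of the 16 fell and 1 rose, beside 9.49% and 9.72% of all genes, Acadsb falling (-0.76) and Oxct1 rising (0.91). In iWAT on WD 4 rose and 1 fell in KO, beside 3.2% of all genes higher and 1.05% lower. Ehhadh (2.20), Hadha (1.70), Hadhb (1.69) and Acads (0.98), all of which fatty acid oxidation also uses, rose, and Abat fell (-1.75).

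The other lists are read against the same shares of all genes, 10.6% higher and 10.4% lower in liver and 3.2% and 1.05% in iWAT. Of 10 genes of the propionate branch 3 rose in KO against WT liver on WD, Pccb (0.49), Pcca (0.42) and Mmadhc (0.34), and 1, Mcee (0.75), rose in iWAT. Among 10 other first-step enzymes, mainly the sister complexes for pyruvate and oxoglutarate, 7 rose and 1 fell in iWAT on WD. Dlat (1.19) and Ogdh (1.17) were among those that rose. Bcat1 fell, at 0.690, 0.989 and 1.06 FPKM in KO and 3.17, 1.80 and 2.48 in WT. The same list had 2 risers of 9 tested in WD liver, Ogdh (0.39) and the pyruvate dehydrogenase kinase Pdk2 (0.64). Of 7 transport genes tested in liver the amino acid carrier Slc38a2 rose (0.95) and Slc7a8 (-1.29), Slc43a2 (-0.99) and Slc3a2 (-0.52) fell. The mitochondrial carrier gene Slc25a44 was at 21.8, 31.7 and 27.1 FPKM in KO and 19.5, 29.0 and 15.6 in WT livers on WD and was not called. Among 10 regulators Klf15, a transcription factor known to drive breakdown genes, rose by 0.75 and Mlxipl by 0.80 in KO liver on WD. In iWAT Ppara (1.94), Ppargc1b (1.26) and Esrra (0.67) rose, and Klf15 did not pass. Over the 6 lists together 16 rose and 4 fell of 57 tested in liver, with a median of 0.35 beside 0.07 for all genes, and 16 rose and 2 fell of 58 in iWAT, with a median of 0.48 beside -0.02.

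The authors' deposited pathway table ranks valine, leucine and isoleucine degradation 9 of 309 for iWAT on WD, with 39 of 53 genes listed, 36 of them higher in KO (adjusted p = 4e-15). For WD liver it ranks the pathway 43 of 310, with 31 of 54 genes listed, 28 of them higher (adjusted p = 0.0433). For chow iWAT it ranks the pathway 19 of 261, with 11 of 54 listed, all 11 higher (adjusted p = 0.00112). For chow liver it lists 2 of 50 (adjusted p = 0.966).

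Across the 12 livers 36 of the 45 pairs among the 10 genes had a Pearson r above 0, with a median of 0.53, and Bckdk had r above 0 with 2 of its 9 partners. Across the 12 iWAT libraries 42 of 45 pairs were above 0, with a median of 0.64, and Ppm1k, which stood nearest to 0, had a median of 0.12. These values describe libraries that share group, depth and tissue makeup. The genes closest to the mean of the 10 in liver, of 7788 compared, were Aes (r = 0.98), Aldh8a1 (0.98), Prodh2 (0.97), Cyp2c29 (0.97) and Aldh7a1 (0.97). In iWAT, of 8067 compared, they were S100a1 (0.98), Echs1 (0.97), Ldhd (0.96), Lncbate1 (0.95) and Mrpl9 (0.95), each over 12 libraries.

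All 10 genes have the coordinates of GENCODE vM21 on mm10, with exons summing to 1805 bases (Bckdhb, chromosome 9, 83925145 to 84124240) up to 10952 (Mccc1, chromosome 3, 35959312 to 36000678). Dbt lies on chromosome 3 at 116513070 to 116549981, Ivd on chromosome 2 at 118861954 to 118882909, Ppm1k on chromosome 6 at 57506502 to 57535468 and Bckdk on chromosome 7 at 127904082 to 127910221. Strand use in the counting is not given in the sources used here, so reads of genes that overlap on opposite strands cannot be told apart. Bckdha shares 1171 exonic bases, 61.7% of its length, with the opposite-strand gene B3gnt8, which reached at most 1.13 FPKM. Bcat2 shares 622 bases, 15.9%, with 0610005C13Rik, at most 0.432 FPKM in iWAT but 21.8 to 28.0 in WT WD livers and 39.9 to 52.8 in KO WD livers, so the liver values of Bcat2 are uncertain. Mccc1 shares 0.858 to 2.93% of its length with 3 such genes.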

How the data were processed

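Poly-A RNA of 24 tissue samples was sequenced in paired reads, aligned with HISAT2 2.0.5 to mm10 and compared with DESeq2 1.20.0 per the submitters' processing notes. No source used here names the counting tool or its strand setting. Deposited by the authors were FPKM and length for every gene and, for the genes they listed in each comparison, raw read counts, log2 fold changes of KO over WT, p-values and adjusted p-values (a DESeq2 analysis, per the deposited readme). The listed counts set 1 constant per library, which turned the deposited FPKM times length into reads: 100% of 540911 values above 0 came out whole (tolerance 0.01), and all 62796 listed counts above 0 were met. A further 56 columns of per-sample values were not used.

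Of the 54532 genes, those with a mean FPKM of at least 0.5 were fitted by tissue (14019 in liver, 14685 in iWAT, 12 libraries and 4 groups each) with limma 3.58.1 (trend, robust) on log2(FPKM + 1), and 15254 genes over all 24 libraries for the tissue comparison. Calls used a Benjamini-Hochberg adjusted p under 0.05. Tests were checked on simulated data. Alternatives were a pseudocount of 0.1, no filter or a mean of at least 5, 3 other scalings, count tests on those reads (edgeR 4.0.16, DESeq2 1.42.0), a replicate block, library weights, the compared groups alone and each library left out. Leaving out libraries high in acinar or muscle genes was added after seeing the data. Same-numbered libraries deviated together in every pair in 1 comparison, KO against WT on chow in iWAT (r = 0.18, 0.13 and 0.41), and nothing in the labels pairs them.

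The 10 genes, the lists and the markers were chosen with earlier results of these data known. All 10 genes are reported, with up to 4 called genes of each list by smallest p. The levels of Bcat1, Slc25a44 and Dld, Klf15 and Ehhadh in iWAT, the ratio of Mccc2 to Mccc1 and the distance to the respiratory chain genes were added after their values were seen. For likeness, the 5 genes with the highest r among those with a mean FPKM of at least 3 are named. Promoters are from RefSeq. Figures used matplotlib.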

Additional observations from a re-analysis of the deposited data

How the results depend on the processing

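Of the 20 differences called among the 10 genes, all 20 kept direction and call with a pseudocount of 0.1, with a mean FPKM of at least 5 and with DESeq2. Scaling to total reads kept 12, lost 7 and turned 1. Dbt, Ivd and Ppm1k (KO against WT on WD) and Dbt and Ivd (diet, WT) in liver kept their calls under every alternative run.

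Counts of called genes among the 10 are given with the share of all genes called at that setting. In KO against WT liver on WD the 5 (21.0%) became 3 without the muscle-high livers (16.3%), and 3 to 7 with 1 library left out (9.39 to 21.2%). For the diet in WT liver the 5 (19.2%) became 3 with total reads (28.3%) and 2 with the compared groups alone (5.12%). With 1 library left out they became 4 to 5 (9.97 to 19.9%). For the diet in KO liver (0.421%) DESeq2 called 1 (4.92%). The liver interaction (0.549%) gave 3 with DESeq2 (4.02%), 2 with library weights (1.1%) and 0 to 2 with 1 library left out (0.107 to 2.29%). In KO against WT iWAT on WD the 2 (4.25%) became 0 with no filter (0.629%), with the compared groups alone (0.103%) or without the muscle-high libraries (0.0274%). They became 1 with total reads (6.53%) or quantile normalization (3.43%) and 4 with edgeR (4.76%) or a mean FPKM of at least 5 (9.13%). With DESeq2 or library weights (10.3% each) they became 5, and with 1 library left out 0 to 3 (0.109 to 5.92%). For the diet in WT iWAT the 0 (2.12%) became 2 with total reads (3.4%), quantile normalization (2.64%) or library weights (5.7%) and 6 with DESeq2 (10.9%). The iWAT interaction gave 1 with DESeq2 (0.386%). Between tissues 7 to 8 were called with 1 library left out (59.3 to 62%).

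The replicate block raised the count in WD iWAT from 2 to 5 (4.68% of all genes) and lost Ppm1k for the diet in WT liver (adjusted p = 0.0739, limma); it changed no other call. The libraries share only a number there.

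Bckdk in KO against WT liver on WD turned to 0.024 without the acinar-high livers, and went from -0.071 to 0.024 with 1 library left out. Between tissues Bckdhb turned to 0.18 (total reads) and 0.21 (quantile), Ivd to 0.70 and 0.75, and Mccc2 to 0.74 and 0.60, with 0.000302 in edgeR and 0.019 with library weights. With 1 library left out Ivd went from -0.23 to 0.059 and Mccc2 from -0.20 to 0.11. The cause of these shifts was not tested.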
